A study of Homo sapiens with 24 samples.

Results

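Integrins are receptors at the cell surface, built of an α and a β chain, and here the mRNAs of 10 of their subunits were followed in colorectal cancer (CRC) cells with and without β-CATENIN. The 10 genes were taken by name, 5 α subunits (*ITGA2*, *ITGA3*, *ITGA5*, *ITGA6*, *ITGAV*) and 5 β subunits (*ITGB1*, *ITGB4*, *ITGB5*, *ITGB6*, *ITGB8*), out of 26 integrin subunit genes looked up and 58051 gene identifiers in all. In SW480 cells 9 of the 10 subunit mRNAs were higher in the β-CATENIN-deficient clones, beside 26.1% of all genes tested that were higher. The largest rises were those of *ITGB8*, *ITGB6* and *ITGA3*. Of these, *ITGB6* was scarce, with a mean count of 8.93 with β-CATENIN and 58.96 without it. It passed the filter on low values through 4 libraries without β-CATENIN and 2 with it. In HCT116 cells 4 of 9 tested were higher, led by *ITGA3* and *ITGA6*, beside 8.05% of all genes, and *ITGA2*, *ITGB4* and *ITGB8* varied mostly between clones of the same genotype. When replicate libraries were averaged per clone, most of the HCT116 members and some of the SW480 members no longer passed. In HT29 cells 0 of 9 tested passed, and the libraries of 3 of them (*ITGB4*, *ITGB5* and *ITGB8*) did not overlap between the genotypes, as was the case for 13% of all genes tested.

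HT29, HCT116 and SW480 are established human CRC cell lines. Both alleles of *CTNNB1*, the β-CATENIN gene, had been inactivated by CRISPR/Cas9 deletion of exon 7 in the KO clones, and the WT clones had passed through the same cloning procedure. HT29 and SW480 cells carry *APC* mutations and HCT116 cells an activating *CTNNB1* mutation, so that WNT/β-CATENIN signaling is on in the WT clones of all 3 lines. Each line had 2 WT clones and 2 KO clones sequenced as replicates A and B, called rounds below, which gave 4 libraries per line and genotype and 24 in all: HT29 WT 11, WT 40, KO 28 and KO 38, HCT116 WT 4, WT 6, KO 44 and KO 47, and SW480 WT 4, WT 5, KO 17 and KO 21. A genotype thus rests on 2 clones per line, each clonally derived. The p-values between genotypes or lines measure the spread among libraries, with the 2 rounds of a clone counted as separate libraries. Those between clones measure the spread between rounds alone. The study also describes SW480 KO clones that became senescent upon long culture. Values are featureCounts reads divided by a DESeq2 size factor, called normalized counts below, and differences are on the scale of log2(normalized count + 1) with their standard error (SE). "Called" means an adjusted p under 0.05 in limma, fitted on all genes that passed a filter on low values, and DEG means called with an absolute log2 difference over 1.

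Each α chain pairs with one or more β chains, and the pair decides which matrix protein a cell can hold on to. *ITGB1* is the common partner: with *ITGA2* it forms a collagen receptor, with *ITGA3* and *ITGA6* laminin receptors and with *ITGA5* the classical fibronectin receptor. *ITGB4* pairs with *ITGA6* in the laminin receptor that anchors hemidesmosomes in epithelia. *ITGB5*, *ITGB6* and *ITGB8* pair with *ITGAV* and bind ligands with an RGD motif, and the receptors with *ITGB6* and *ITGB8* are known to activate latent TGF-β. β-CATENIN itself acts in the nucleus with TCF/LEF factors and at the membrane in cadherin junctions.

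On GRCh37 the α genes lie at chr5:52285170-52390609, plus strand (*ITGA2*), chr17:48133332-48167845, plus strand (*ITGA3*), chr12:54789045-54813050, minus strand (*ITGA5*), chr2:173292082-173371187, plus strand (*ITGA6*) and chr2:187454737-187545628, plus strand (*ITGAV*). The β genes lie at chr10:33176201-33294720, minus strand (*ITGB1*), chr17:73717408-73753899, plus strand (*ITGB4*), chr3:124480795-124620265, minus strand (*ITGB5*), chr2:160956178-161056824, minus strand (*ITGB6*) and chr7:20370325-20455377, plus strand (*ITGB8*). Values cover all exons of a gene and do not separate isoforms. The libraries were unstranded, so that reads from exons shared with an antisense gene, which *ITGA5* (*GPR84-AS1*), *ITGA6* (*ITGA6-AS1* and *PDK1-AS1*), *ITGAV*, *ITGB1* (*ITGB1-DT*) and *ITGB8* (*ITGB8-AS1*) have in the annotation, cannot be told apart. *ITGB6* shares exon bases with a gene on its own strand.

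*ITGA5* and *ITGB6* were the members at or near 0 in 1 line and abundant in another, and the bases just upstream of their RefSeq starts are shown for that reason. They were matched to GRCh37, are written 5′ to 3′ on the strand of the gene, and stop before the first annotated exon base. Capitals mark GGGCGG or its reverse complement, a GC box word that was chosen after the values had been seen.
ITGA5: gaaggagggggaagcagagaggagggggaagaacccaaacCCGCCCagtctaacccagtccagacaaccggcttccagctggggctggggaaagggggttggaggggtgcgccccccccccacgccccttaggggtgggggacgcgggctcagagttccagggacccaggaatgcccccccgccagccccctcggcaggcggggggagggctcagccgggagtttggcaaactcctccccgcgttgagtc
ITGB6: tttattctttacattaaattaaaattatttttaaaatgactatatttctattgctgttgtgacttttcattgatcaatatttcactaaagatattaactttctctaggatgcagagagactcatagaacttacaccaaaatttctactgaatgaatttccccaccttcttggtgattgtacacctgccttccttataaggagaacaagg
The *ITGA5* stretch (chr12:54813051-54813300, minus strand, 250 bases) held 70.0% G and C, 12 CG dinucleotides and 1 GC box word. The *ITGB6* stretch (chr2:161056825-161057033, minus strand, 209 bases) held 30.1% G and C, 0 CG dinucleotides and 0 GC box words. Of the 10 members, 8 had windows in the RefSeq promoter table (GRCh38.p14, 250 bases before to 50 after a start), and the members not in it were *ITGA3* and *ITGB4*. The TCF/LEF word CTTTGAT, searched on both strands, was in 0 of these 13 windows and in 2.62% of all 35116 windows. GGGCGG, on both strands, was in 9 of the 13 windows, which belong to *ITGA2*, *ITGA5*, *ITGA6*, *ITGB1*, *ITGB5* and *ITGB8*, and in 45.0% of all windows. The words overlap no other word searched, and the absence of letters from a short window says nothing about binding elsewhere.

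The libraries held 22297049 to 29068378 reads on genes. *CTNNB1* mRNA was lower in the KO clones of every line (HT29 299.8 against 6021 normalized counts, HCT116 218 against 11918, SW480 1024 against 46967, means of 4 libraries), and no library went against its label. HCT116 KO 47A had reads on 35449 genes, whereas the other 23 libraries had them on 20256 to 24944, and HT29 KO 38 had the widest gap between its rounds, with a median of 1.55-fold over the 9 members compared and round B the lower. Leaving out KO 38B left 0 members called in HT29, and leaving out KO 47A left 4 called in HCT116, with *ITGAV* in place of *ITGA5*. In bulk RNA, a change in the share of cells that express a gene and a change in level per cell cannot be told apart.

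**Figure D1:**
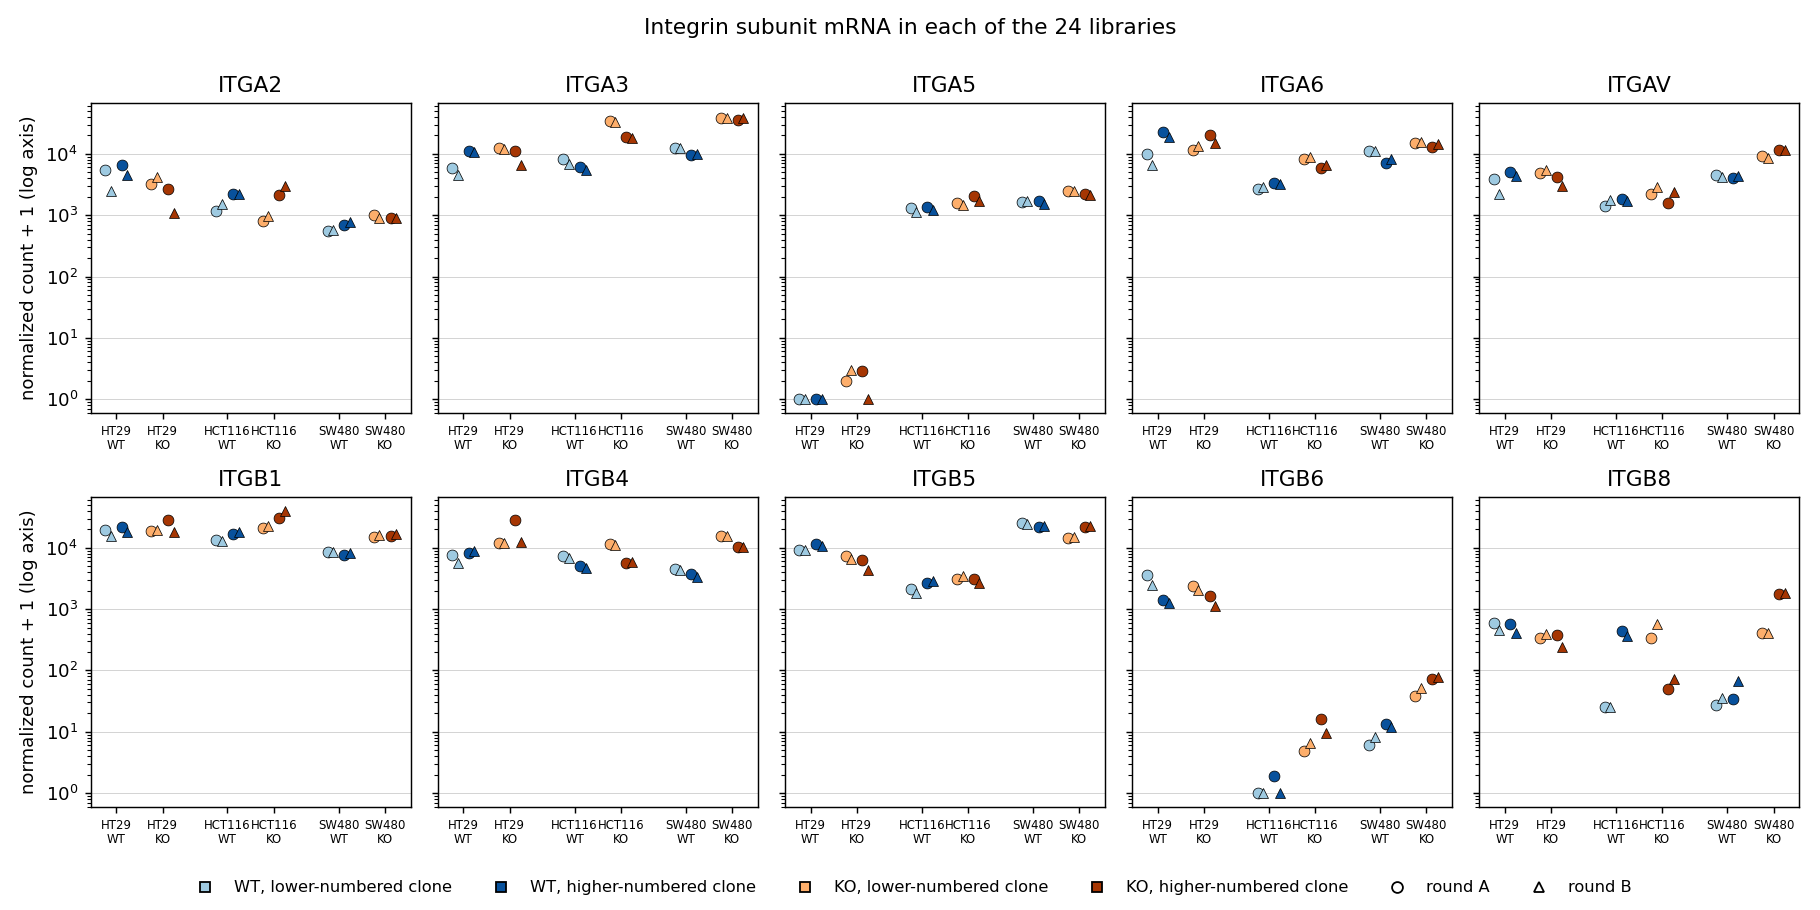
Normalized count + 1 (log axis) of the 10 integrin subunits in each of the 24 libraries, by line and genotype, with clones by colour and rounds by symbol. ITGA5 sits at the bottom of the scale in the HT29 libraries alone, ITGB6 is high in the HT29 libraries alone, and the ITGB8 libraries of HCT116 split by clone within both genotypes.

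WT levels were compared between the lines, where most genes differed. Of the 10 members, 7 were called between WT HT29 and WT HCT116 cells, 7 between WT HT29 and WT SW480 cells and 7 between WT HCT116 and WT SW480 cells. Of all genes tested 58.4%, 60.3% and 60.5% were called, so that the members' share lay near the background. DEGs were 7, 6 and 5 members, beside 37.3%, 40% and 39.9% of all genes tested. *ITGA5* was all but absent from HT29 cells: it had 0 reads in each of the 4 WT HT29 libraries and 5 reads in the 4 HT29 KO libraries together. In WT HCT116 libraries *ITGA5* ranged from 1133 to 1365 normalized counts and in WT SW480 libraries from 1509 to 1729. Against a floor of 3 reads over the 4 HT29 libraries, the mean was at least 1598-fold higher in HCT116 cells and at least 2087-fold higher in SW480 cells. The WT libraries of HCT116 and SW480 cells did not overlap for *ITGA5*, yet the lines were not called different (log2 difference −0.39 ± 0.23, adjusted p = 0.158). That fit shares 1 estimate of the spread over all 24 libraries, those of HT29 with almost no *ITGA5* reads included. The missing call thus does not show that the 2 lines are alike.

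*ITGB6*, the epithelial partner of *ITGAV*, was instead highest in HT29 cells. WT HT29 libraries held 3604 and 2465 in WT 11 and 1404 and 1255 in WT 40, WT SW480 libraries 5.05 to 12.5 normalized counts, and the 4 WT HCT116 libraries 1 read in total. The HT29 mean was 244-fold that of SW480 cells and 9446-fold that of HCT116 cells, the latter with a counting interval (95%) from 1749 to 385089 because of the single read. Floors and counting intervals cover counting error only.

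The other partners of *ITGAV* also differed between lines. *ITGB5*, the vitronectin receptor chain, averaged 23514 ± 1678 normalized counts (SD, n = 4) in WT SW480 cells, 10070.0 ± 1092 in WT HT29 cells and 2359 ± 453 in WT HCT116 cells, with no overlap between any pair of lines. Its log2 difference was −3.33 ± 0.17 for HCT116 minus SW480 cells (adjusted p = 9.43e-14) and 2.11 ± 0.17 for HT29 minus HCT116 cells (adjusted p = 2.64e-10). *ITGB8* averaged 508 ± 92.1 in WT HT29 cells and 39.9 ± 17.5 in WT SW480 cells (log2 difference 3.71 ± 0.85, adjusted p = 0.000737), whereas its WT HCT116 libraries ran from 24.1 to 442, a range that overlapped both (log2 difference 2.32 ± 0.85, adjusted p = 0.0236 for HT29 minus HCT116). *ITGAV* itself averaged 4257 ± 215 in SW480 and 3874 ± 1244 in HT29 cells, which were not called different (adjusted p = 0.444), and was lower in HCT116 cells at 1664 ± 182 (log2 difference 1.16 ± 0.22, adjusted p = 8.65e-05 for HT29 minus HCT116).

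Among the collagen and laminin receptor chains, *ITGA2* followed the order HT29 (4746 ± 1739), HCT116 (1784 ± 524) and SW480 (650.2 ± 109), with every step called. *ITGA6* was higher in HT29 (14462 ± 7509.7) and SW480 (9432 ± 2060.2) than in HCT116 cells (3024 ± 355), and HT29 and SW480 cells were not called different (adjusted p = 0.135). *ITGA3* was close in HT29 and HCT116 cells (adjusted p = 0.567) and higher in SW480 than in HCT116 cells (11103 ± 1667 against 6698 ± 1123, adjusted p = 0.0189). *ITGB1* was lowest in SW480 cells at 8194 ± 462, against 18878 ± 2836 in HT29 and 15365 ± 2465 in HCT116 cells, which were not called different (adjusted p = 0.141). *ITGB4* was called higher in HT29 than in SW480 cells (7650.5 ± 1429 against 3973 ± 518, adjusted p = 0.00499), and the 5956 ± 1256 of HCT116 cells were not called different from either.

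Per kb of canonical transcript, which allows genes to be compared, *ITGB1* led in WT HT29 (5054 ± 759 normalized counts per kb) and WT HCT116 cells (4114 ± 660.1), and *ITGB5* led in WT SW480 cells (5296 ± 378). The α chains at the top were *ITGA6* in HT29 (2487 ± 1291), and *ITGA3* in HCT116 (1369.9 ± 229.8) and SW480 cells (2271 ± 341). Library ranges of *ITGA6* and *ITGA3* overlapped in HT29 cells (1126 to 3897 and 920 to 2306). In SW480 cells they overlapped narrowly (1227 to 1937 for *ITGA6* and 1933 to 2566 for *ITGA3*). The overlaps that follow are those of neighbours in the order of all 10 members alone. In the HT29 order, library ranges overlapped between *ITGA6* and *ITGB5*, *ITGB5* and *ITGA3*, *ITGA3* and *ITGB4*, *ITGA2* and *ITGAV*, and *ITGAV* and *ITGB6*, while *ITGB8* and *ITGA5* stood apart below. In HCT116 cells *ITGA3* overlapped with *ITGB4*, *ITGB5* with *ITGA6* and *ITGAV* with *ITGA2*, and in SW480 cells *ITGA3* with *ITGB1* and *ITGB4* with *ITGAV*. *ITGB5* made up 64.8% of the per-kb sum of the 5 β members in WT SW480 cells, 24.8% in WT HT29 and 9.36% in WT HCT116 cells (75.8%, 35.3% and 15.7% per kb of all exons). The order depends on the length used: per kb of all annotated exons *ITGA6* led in HT29 cells and was the top α chain in SW480 cells, whereas *ITGB1* led in HCT116 and *ITGB5* in SW480 cells with either length.

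**Figure D2:**
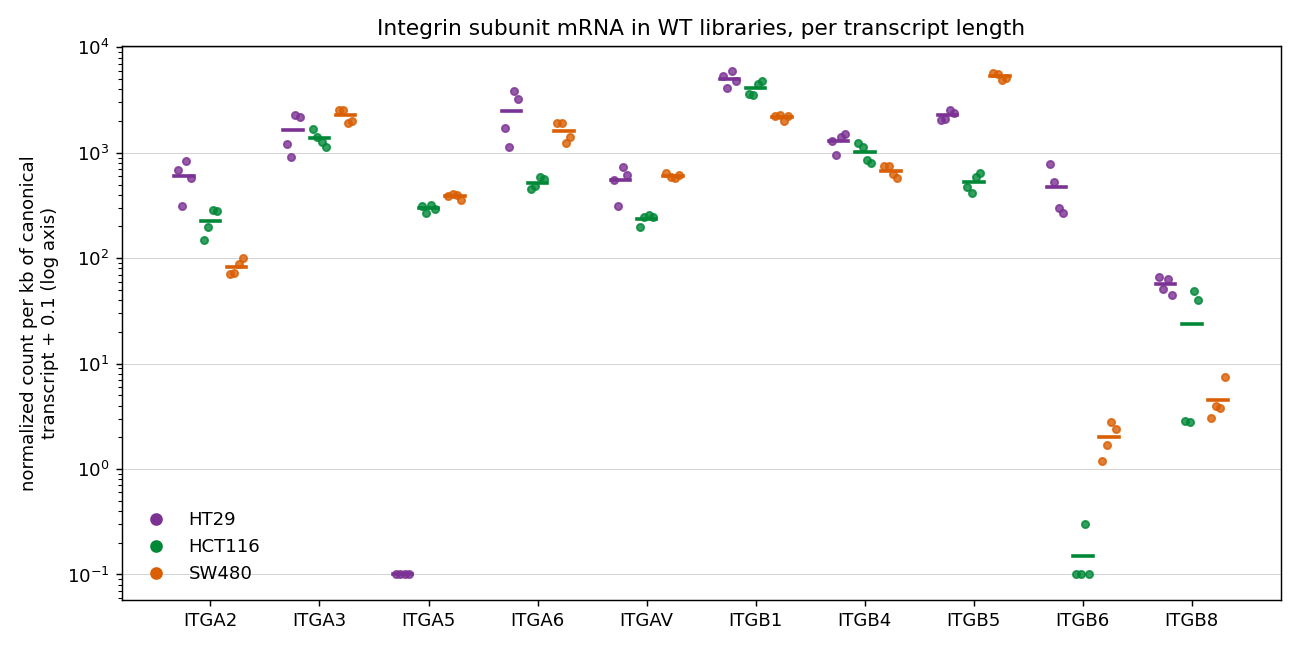
Normalized counts per kb of canonical transcript + 0.1 (log axis) of the 10 members in the WT libraries of each line, with a dot per library and a bar at the mean of 4. ITGA5 is at 0 in HT29, ITGB6 is high in HT29 alone, and ITGB5 is highest in SW480.

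The comparison of KO with WT clones asks which subunit mRNAs depend on β-CATENIN in each line. Of the members tested, 0 of 9 were called in HT29 (background 2.08% higher and 0.476% lower), 4 of 9 were higher and 0 lower in HCT116 (background 8.05% and 5.93%), and 9 of 10 were higher and 0 lower in SW480 cells (background 26.1% and 22.1%). DEGs were 0, 2 and 5 members, beside 2.3%, 5.06% and 17.5% of all genes tested. The median log2 difference of the members tested was 0.16 for HT29, 0.45 for HCT116 and 1.10 for SW480 cells, whereas over all genes tested it was 0.031, −0.014 and −0.0042. *ITGA5* in HT29 and *ITGB6* in HCT116 were under the filter, and *ITGB6* passed it in SW480 through 4 KO and 2 WT libraries. In all 30 member and line cases, untested ones included, the difference had the same sign in round A and in round B, but both rounds come from the same clones and so do not separate a genotype from a clone difference. The share of all genes with the same sign in both rounds was not computed, and the *ITGA5* case in HT29 rests on 0 to 2 reads per library. In HT29, 3 members had an unadjusted p under 0.05, edgeR called 0 and DESeq2 2.

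**Figure D3:**
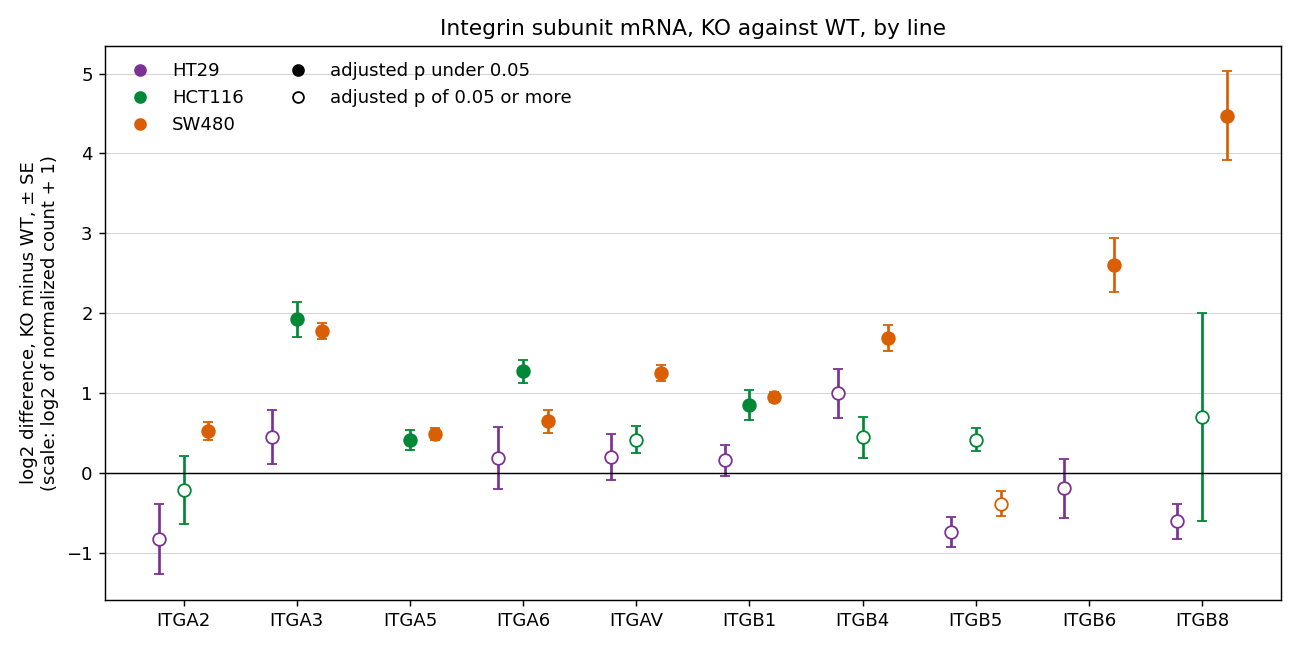
Log2 difference between KO and WT clones for the 10 members in each line, with its SE; filled points were called. Filled points lie above 0 for 4 members in HCT116 and 9 in SW480 and there are none in HT29; ITGA5 in HT29 and ITGB6 in HCT116 are not drawn because they were under the filter.

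The laminin receptor chain *ITGA3* had the largest rise of the members in HCT116 cells. Its WT libraries held 8173 and 6872 in WT 4 and 6203 and 5542 in WT 6, and its KO libraries 34416 and 33333 in KO 44 and 19003 and 18367 in KO 47. Every KO library was above the highest WT library, and KO 44 was above KO 47 (log2 difference 1.92 ± 0.22, adjusted p = 0.000364). In SW480 cells *ITGA3* went from 9449 to 12544 in WT to 35920.2 to 38859 normalized counts in KO libraries (log2 difference 1.78 ± 0.1, adjusted p = 2.62e-07), and both KO clones lay close together. In HT29 cells the libraries overlapped (4498 to 11276 in WT, 6696 to 12505 in KO) and the difference was 0.45 ± 0.34 (adjusted p = 0.525). With the rounds averaged per clone, so that 2 clones stood against 2, the adjusted p in HCT116 was 0.0845.

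*ITGA6*, which pairs with *ITGB1* or *ITGB4*, also rose in both of these lines. HCT116 WT libraries held 2628 and 2829.7 in WT 4 and 3390.2 and 3247 in WT 6, and KO libraries 8193 and 8859 in KO 44 and 5874 and 6589.6 in KO 47. The groups did not overlap (log2 difference 1.28 ± 0.14, adjusted p = 0.000173). In SW480 cells the rise was smaller, from 7135 to 11264 to 12985 to 15440.1 (log2 difference 0.65 ± 0.14, adjusted p = 0.00377; 0.0682 with the rounds averaged per clone). HT29 cells had 6549 to 22664 in WT and 11387 to 20432 in KO libraries, a difference of 0.19 ± 0.39 (adjusted p = 0.83), with the KO libraries inside the WT range.

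*ITGB4*, the hemidesmosome chain, rose in SW480 cells, where WT libraries held 4437 and 4381 in WT 4 and 3681 and 3392 in WT 5 and KO libraries 15842 and 15340.1 in KO 17 and 10328 and 10449.8 in KO 21. The KO clones differed from each other as well, with KO 17 the higher, yet every KO library was at least at 10328 (log2 difference 1.69 ± 0.16, adjusted p = 1.52e-05). In HT29 cells WT libraries held 7671 and 5652 in WT 11 and 8342 and 8937 in WT 40 and KO libraries 11834 and 12152 in KO 28 and 28863 and 12384 in KO 38. They did not overlap, and KO 38A was far above the other KO libraries (log2 difference 1.00 ± 0.30, adjusted p = 0.142 in limma, 0.0337 in DESeq2). In HCT116 cells KO 44 (11359 and 11035) was above every WT library and KO 47 (5563 and 5839.8) within the WT range of 4759.8 to 7342, and the genotypes were not called different (log2 difference 0.45 ± 0.26, adjusted p = 0.288). Without KO 47 the difference was 0.93 (adjusted p = 0.00509.

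*ITGB1*, the shared partner, was higher in KO clones of HCT116 and SW480 cells. HCT116 WT libraries held 13473 and 13063 in WT 4 and 16929.8 and 17993 in WT 6, and KO libraries 20966 and 22810.1 in KO 44 and 30124 and 39619.5 in KO 47, so that KO 47 was the higher KO clone here (log2 difference 0.85 ± 0.19, adjusted p = 0.0144). This call was lost without WT 4 (adjusted p = 0.104) and with the rounds averaged per clone (adjusted p = 0.203). In SW480 cells *ITGB1* moved from 7511 to 8518 to 15006 to 16715, a 1.94-fold higher mean (log2 difference 0.96 ± 0.065, adjusted p = 1.11e-06). In HT29 cells the difference was 0.16 ± 0.19 (adjusted p = 0.701).

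The collagen receptor chain *ITGA2* was called in SW480 alone among the lines, where it rose from 555 to 784 to 903 to 1006 (log2 difference 0.53 ± 0.11, adjusted p = 0.00324; 0.0752 with the rounds averaged per clone). In HCT116 cells *ITGA2* split by clone, with 815 and 952 in KO 44 and 2147 and 2968 in KO 47 beside 1161 to 2246 in WT libraries (log2 difference −0.21 ± 0.43, adjusted p = 0.791). Without KO 47 its difference was −0.97 (adjusted p = 0.026), and without KO 44 it was 0.55 (adjusted p = 0.248). In HT29 cells it was −0.83 ± 0.44 (adjusted p = 0.389).

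The fibronectin receptor chain *ITGA5* rose in SW480 cells from 1509 to 1729 to 2111 to 2498 (log2 difference 0.49 ± 0.079, adjusted p = 0.000526). In HCT116 cells WT libraries held 1316 and 1133 in WT 4 and 1365 and 1238 in WT 6, and KO libraries 1558 and 1451 in KO 44 and 2062 and 1732 in KO 47. The groups did not overlap (log2 difference 0.42 ± 0.13, adjusted p = 0.0463), but the call was lost without KO 47A (difference 0.32, adjusted p = 0.106), without any other library except KO 44B of the 8, and with clone as a random effect (adjusted p = 0.127). In HT29 KO libraries it held 0 to 2 reads, and no fold is given.

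*ITGAV*, the α chain that pairs with *ITGB5*, *ITGB6* and *ITGB8*, rose in SW480 cells, where WT libraries held 4516 and 4172 in WT 4 and 4014 and 4326 in WT 5 and KO libraries 9107 and 8710.5 in KO 17 and 11493 and 11489 in KO 21. Every KO library was more than 4516, the highest WT value (log2 difference 1.25 ± 0.10, adjusted p = 3.56e-06). In HCT116 cells the libraries overlapped through KO 47A (1397 to 1803 in WT, 1568 to 2929 in KO; log2 difference 0.42 ± 0.17, adjusted p = 0.126), and without KO 47A the difference was 0.59 and called (adjusted p = 0.0222). In HT29 cells it was 0.21 ± 0.29 (adjusted p = 0.751).

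*ITGB8*, which with *ITGAV* activates latent TGF-β, had the largest difference of the 10 members in SW480 cells. Its WT libraries held 26.3 and 34.9 in WT 4 and 32.8 and 65.6 in WT 5, and its KO libraries 404 and 410.1 in KO 17 and 1741 and 1846 in KO 21. KO 21 was more than 4 times KO 17, and both were far above WT (log2 difference 4.47 ± 0.56, adjusted p = 0.000167; mean 27.6-fold). In HCT116 cells the clones crossed: WT libraries held 24.8 and 24.1 in WT 4 and 442 and 358 in WT 6, and KO libraries 341 and 575 in KO 44 and 49.2 and 72.3 in KO 47. A low and a high clone were found in each genotype, and the difference was 0.70 ± 1.31 (adjusted p = 0.769). In HT29 cells it ran the other way, with 599 and 461 in WT 11 and 569 and 402 in WT 40 against 334 and 395 in KO 28 and 374 and 241 in KO 38, which did not overlap and was not called (log2 difference −0.60 ± 0.22, adjusted p = 0.218).

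*ITGB6* rose in SW480 cells at a low level, from 5.05 and 7.35 in WT 4 and 12.5 and 10.8 in WT 5 to 36.7 and 50.5 in KO 17 and 71.9 and 76.8 in KO 21 (log2 difference 2.60 ± 0.33, adjusted p = 0.000105). The KO level was still below the lowest HT29 library, at 1134. In HCT116 cells 33 reads were counted in the 4 KO libraries and 1 read in the 4 WT libraries, a ratio of 35.9 with a counting interval (95%) from 5.86 to 1424. KO 47A, the library with reads on many more genes, held 15.0 normalized counts against 8.56 in KO 47B, and its part in this ratio was not tested. In HT29 cells *ITGB6* was 1255 to 3604 in WT and 1134 to 2409 in KO libraries (adjusted p = 0.823).

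*ITGB5* was the member with lower KO values in SW480 cells. WT libraries held 25221 and 24605 in WT 4 and 21652 and 22578 in WT 5, and KO libraries 14512 and 14719 in KO 17 and 22163 and 22389.6 in KO 21. KO 17 was below every WT library and KO 21 within the WT range, and the genotypes were not called different (log2 difference −0.38 ± 0.15, adjusted p = 0.0617); without KO 21 the difference was −0.68 (adjusted p = 4.50e-05), and it was called by DESeq2 (adjusted p = 0.0381). In HT29 cells WT libraries held 9081 and 9279 in WT 11 and 11402 and 10518 in WT 40, and KO libraries 7316 and 6557 in KO 28 and 6304 and 4369 in KO 38. All KO libraries were lower (log2 difference −0.73 ± 0.18, adjusted p = 0.0816 in limma, 0.00688 in DESeq2). In HCT116 cells the difference had the opposite sign, from 1859.9 to 2849 in WT to 2712 to 3516 in KO libraries, and was not called (log2 difference 0.42 ± 0.14, adjusted p = 0.0724).

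The shares of the subunits per kb differed between WT and KO groups, and their size depends on the length used. In SW480 cells the share of *ITGA3* in the 5 α members went from 45.7% to 62.7% per kb of canonical transcript and 36.9% to 55.2% per kb of all exons. In HCT116 cells it went from 51.7% to 70.9% per kb of canonical transcript and 42.2% to 61.6% per kb of all exons. Of the 5 β members in SW480 cells, *ITGB5* went from 64.8% to 38.7% per kb of canonical transcript and 75.8% to 47.8% per kb of all exons. *ITGB4* went from 8.25% to 20.5% per kb of canonical transcript and 12.3% to 32.4% per kb of all exons there, and *ITGB1* from 26.9% to 39.6% per kb of canonical transcript and 11.8% to 18.4% per kb of all exons. These are shares of group means and were given no test.

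KO effects were then set against each other across lines by a test of their difference. These comparisons share libraries: each line enters a pair of them. Between HT29 and HCT116 cells 3 of 10 members differed, *ITGA3*, *ITGB5* and *ITGB6* (beside 7.25% of all genes tested; 3 DEGs, beside 5.39%). Between HT29 and SW480 cells 5 differed, *ITGA3*, *ITGAV*, *ITGB1*, *ITGB6* and *ITGB8* (beside 15.8%; 4 DEGs, beside 12.3%), and between HCT116 and SW480 cells 3 differed, *ITGB4*, *ITGB5* and *ITGB8* (beside 13.2%; 2 DEGs, beside 10%). The KO effect of *ITGA3* was lower in HT29 than in HCT116 cells (−1.47 ± 0.37, HT29 minus HCT116, adjusted p = 0.0156) and than in SW480 cells (−1.33 ± 0.37, HT29 minus SW480, adjusted p = 0.0149), whereas HCT116 and SW480 cells were not called different (0.14 ± 0.37, adjusted p = 0.869). For *ITGB5* the effect in HCT116 was above that in HT29 (−1.15 ± 0.24, HT29 minus HCT116, adjusted p = 0.00364) and in SW480 cells (0.80 ± 0.24, HCT116 minus SW480, adjusted p = 0.0273). For *ITGB8* the effect in SW480 was above that in HT29 (−5.07 ± 1.20, HT29 minus SW480, adjusted p = 0.005) and in HCT116 cells (−3.77 ± 1.20, HCT116 minus SW480, adjusted p = 0.041). With the rounds averaged per clone, 0 members differed in any of these comparisons. Between HT29 and SW480 cells 3 differed without HT29 WT 40A, and between HCT116 and SW480 cells 1 differed without any of HCT116 WT 4A, WT 4B, KO 47A and KO 47B or SW480 WT 4A, WT 4B, WT 5A, KO 17A and KO 17B. The *ITGB6* differences rest on HCT116 and SW480 libraries with few reads.

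Clones of the same line and genotype differed as well, which bears on every value above. The error of these tests comes from the rounds alone. Between HCT116 KO 44 and KO 47, 6 of 9 members were called, beside 7.16% of all genes tested (2 DEGs, beside 3.28%), and between HCT116 WT 4 and WT 6 2 of 9, beside 2.61% (1 DEG, beside 1.44%). Between HT29 WT 11 and WT 40, 3 of 9 were called, beside 9.02% (3 DEGs, beside 7.58%), and between HT29 KO 28 and KO 38 0 of 9, beside 16% (0 DEGs, beside 12.5%). Between SW480 KO 17 and KO 21, 5 of 10 were called, beside 28% (1 DEG, beside 4.61%), and between SW480 WT 4 and WT 5 4 of 10, beside 8.88% (0 DEGs, beside 1.97%). Between HT29 KO 28 and KO 38, 1 member had an unadjusted p under 0.05, edgeR and DESeq2 called 0, and 5 were called without KO 38A and 2 without KO 38B. The 3 calls between the HT29 WT clones fell to 0 without WT 11B, WT 40A or WT 40B and to 1 without WT 11A, KO 28A or KO 28B. The 2 calls between the HCT116 WT clones fell to 1 without any WT library or either KO 44 library, and the 4 between the SW480 WT clones to 2 without WT 5B. The counts above come from fits without a round term, also in HCT116, where the rounds paired the libraries. There a block for the round called 8 members between the KO clones and 7 between the WT clones, with 3317 and 2501 of 15404 genes called in all.

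In HCT116 the KO clones went apart in both directions. *ITGB8* (2.87 ± 0.29, KO 44 minus KO 47, adjusted p = 0.000313), *ITGB4* (0.97 ± 0.10, adjusted p = 0.000463), *ITGA3* (0.86 ± 0.12, adjusted p = 0.00226) and *ITGA6* (0.45 ± 0.11, adjusted p = 0.0371) were higher in KO 44. *ITGA2* (−1.52 ± 0.18, adjusted p = 0.000974) and *ITGB1* (−0.66 ± 0.14, adjusted p = 0.0171) were higher in KO 47. Both chains of the collagen receptor were thereby higher in KO 47. Among the WT clones *ITGB8* was −3.97 ± 0.29 in WT 4 minus WT 6 (adjusted p = 9.41e-05), which was the largest difference of a member between clones of any line and genotype.

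In HT29 the WT clones differed in *ITGA6* (−1.36 ± 0.26, WT 11 minus WT 40, adjusted p = 0.0177), *ITGA3* (−1.10 ± 0.26, adjusted p = 0.0413) and *ITGB6* (1.17 ± 0.26, adjusted p = 0.0293), all DEGs. In SW480 the called members that differed most between the KO clones were *ITGB8* (−2.14 ± 0.26, KO 17 minus KO 21, adjusted p = 7.98e-05) and *ITGB5* (−0.61 ± 0.061, adjusted p = 3.44e-06), followed by *ITGA5*, *ITGAV* and *ITGB4* with differences under 0.6. *ITGB6*, with few reads, had −0.77 ± 0.35 and was not called (adjusted p = 0.117). The WT clones of SW480 differed by under 0.6 in each of the 4 members called (*ITGA2*, *ITGA3*, *ITGA6* and *ITGB4*).

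The sum of squares of each tested member within a line was split into genotype, clone and round as a description. The genotype took a median share of 18.4% for HT29, 53.3% for HCT116 and 88.9% for SW480 cells, and that of the clone within genotype 33.0%, 27.7% and 8.96%. In HCT116 cells the clone share was 94.2% for *ITGB8*, 90.3% for *ITGA2* and 74.5% for *ITGB4*, against 8.01% for *ITGA6* and 10.4% for *ITGA3*. In SW480 cells *ITGB5* had the highest clone share, 57.9%.

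**Figure D4:**
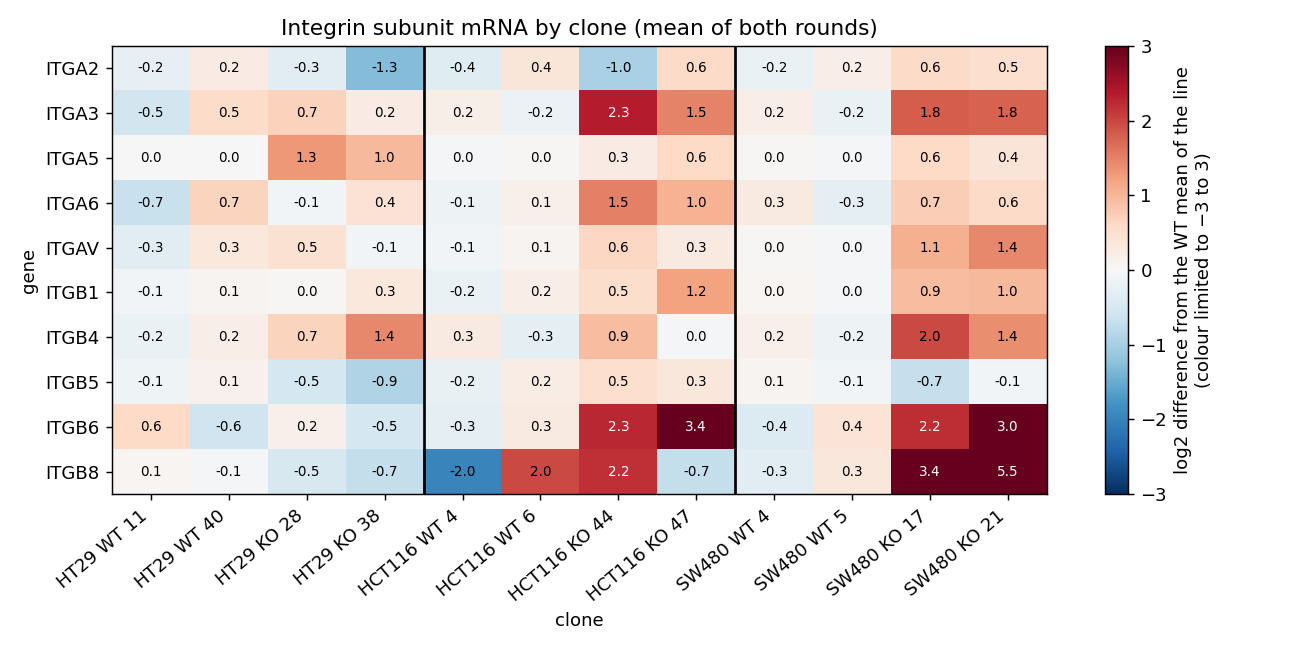
Log2 difference of each clone (mean of both rounds, log2 of the mean + 1) from the mean of the WT clones of its line, for the 10 members; red is higher and blue lower, and the numbers in the cells are the differences. ITGA3 is red in both KO clones of HCT116 and SW480, ITGB8 has a blue and a red clone in both genotypes of HCT116, and ITGA5 in HT29 rests on 0 to 2 reads per library.

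Of the 16 other integrin subunit genes, 6 were tested in HT29, 6 in HCT116 and 12 in SW480 cells. In SW480 cells 7 of 12 were higher and 3 lower in KO clones (*ITGA1*, *ITGA2B* and *ITGA9*), and 3 of those that were higher (*ITGAM*, *ITGB3* and *ITGB7*) passed the filter through the KO libraries alone, so that they had to differ. *ITGA1*, a collagen receptor chain and partner of *ITGB1*, went from 3064 ± 704 to 394 ± 146 in SW480 cells (log2 difference −3.01 ± 0.26, adjusted p = 1.19e-05), whereas the collagen receptor chain *ITGA2* rose there. *ITGA7*, a laminin receptor chain, rose from 1656 ± 170.0 to 3374 ± 1075 (log2 difference 0.98 ± 0.20, adjusted p = 0.00291). *ITGB3*, a further partner of *ITGAV*, was chosen after its values had been seen: it went from 0.919 to 3.03 to 128 to 169 normalized counts. Its test is not given because of the filter. In HCT116 cells 1 of 6 was called, *ITGA1*, which rose from 42.5 ± 9.19 to 116 ± 24.2 (log2 difference 1.43 ± 0.24, adjusted p = 0.00259), the opposite direction to SW480. In HT29 cells 1 of 6 was called, *ITGAM*, which went from 1.25 to 8.64 to 67.4 to 236. It passed the filter through the KO libraries alone, so that it had to differ and its test is not given. *ITGA1* in HCT116 and *ITGAM* in HT29 were named after their values had been seen.

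Of 23 matrix ligands, 1 of 18 tested was higher in HT29, 7 of 17 were higher and 2 lower in HCT116, and 10 of 18 were higher and 3 lower in SW480 cells, where *LAMA4* passed the filter through the KO and *COL1A2* through the WT libraries alone. The background was 2.08% higher in HT29, 8.05% higher and 5.93% lower in HCT116, and 26.1% higher and 22.1% lower in SW480 cells. *LAMB3*, a chain of an epithelial laminin, rose in SW480 cells from 254 to 908 to 1101 to 10149 (log2 difference 2.78 ± 0.85, adjusted p = 0.0264). *LAMA2*, a chain of the muscle-type laminin, fell in HCT116 cells from 710.1 ± 61.1 to 122 ± 18.3 (log2 difference −2.54 ± 0.15, adjusted p = 1.17e-06). *TNC*, the matrix protein tenascin, rose in SW480 cells from 671 ± 101 to 5787 ± 796 (log2 difference 3.11 ± 0.13, adjusted p = 2.97e-08).

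Among 9 hemidesmosome and tetraspanin partners, 2 of 9 tested were higher in HT29, 1 of 8 in HCT116 and 6 of 8 in SW480 cells, with 0 lower. The background of genes called higher was 2.08%, 8.05% and 26.1%. In SW480 cells *COL17A1* passed the filter through the KO libraries alone and so had to be higher. *PLEC*, which links *ITGB4* to keratin filaments, rose in SW480 cells from 15462 ± 308 to 49574 ± 6987 (log2 difference 1.67 ± 0.095, adjusted p = 3.12e-07). The tetraspanin *CD82* rose in HT29 (log2 difference 1.86 ± 0.21, adjusted p = 0.00302) and SW480 cells (log2 difference 1.73 ± 0.084, adjusted p = 1.05e-07), and *TSPAN1* rose in HT29 cells (log2 difference 1.33 ± 0.16, adjusted p = 0.00424). *CD151*, the tetraspanin that binds laminin receptors, rose in HCT116 cells from 3512 ± 273 to 4744 ± 535 (log2 difference 0.43 ± 0.11, adjusted p = 0.0201).

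Among 30 adhesion adaptors, 1 of 28 tested was lower in HT29, 7 of 29 were higher and 2 lower in HCT116, and 11 of 30 were higher and 6 lower in SW480 cells. The background was 0.476% lower in HT29, 8.05% higher and 5.93% lower in HCT116, and 26.1% higher and 22.1% lower in SW480 cells. The actin crosslinker *FLNA* fell in HT29 cells from 22557 ± 7803 to 7134 ± 2251 (log2 difference −1.66 ± 0.32, adjusted p = 0.0324). *TNS4*, a tensin that binds β integrin tails, fell in HCT116 cells from 1501 ± 186 to 63.4 ± 9.02 (log2 difference −4.55 ± 0.16, adjusted p = 3.64e-08), and the kinase gene *PTK2B* rose (log2 difference 1.35 ± 0.19, adjusted p = 0.000863). In SW480 cells *TNS1* (log2 difference 1.85 ± 0.33, adjusted p = 0.00142) and the focal adhesion scaffold *PXN* (log2 difference 1.44 ± 0.088, adjusted p = 4.82e-07) rose. The lists share no gene with the 10 members. Their median log2 differences were 0.75 (other subunits), 0.36 (ligands), −0.14 (adaptors) and 0.57 (partners) for HT29, of −0.38, 0.25, 0.062 and 0.40 for HCT116, and of 1.34, 0.55, 0.097 and 1.28 for SW480 cells. They include genes that passed the filter through 1 genotype alone (3 of the 12 other subunits in SW480, and 5 with fewer than 4 WT libraries at 10 or more), so that they are not comparable with the medians over all genes.

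Markers of other cell types were read beside these results. The 7 colorectal epithelial markers summed to between 109678 and 655177 normalized counts in the 24 libraries, chiefly *KRT8* and *KRT18*. Of the 7, 6 averaged at least 10 in the WT cells of each line. In KO cells 7 did so in HT29, 5 in HCT116 and 5 in SW480. *CDH1* averaged 55.6 in WT and 44.0 in KO SW480 cells, against 8179 in WT HT29 cells, and *VIL1* averaged 17.8 and 8.92 in SW480 cells. *KRT20* rose in HT29 KO clones (log2 difference 2.34 ± 0.46, adjusted p = 0.0361). In HCT116 KO clones *CDH1* (log2 difference 1.17 ± 0.13, adjusted p = 0.000197) and *EPCAM* (log2 difference 0.46 ± 0.09, adjusted p = 0.0063) rose, *CDX2* fell (log2 difference −0.47 ± 0.12, adjusted p = 0.0282), and *KRT20*, which passed the filter through the WT libraries alone, went from 58.2 to 104 to 0 to 0.983 normalized counts. In SW480 KO clones *CDX2* (log2 difference −3.49 ± 0.36, adjusted p = 3.83e-05) and *EPCAM* (log2 difference −0.99 ± 0.21, adjusted p = 0.00388) fell. The 5 fibroblast markers summed to 2.51 to 7.68 in HT29 WT, 91.5 to 1127 in HT29 KO, 6.66 to 35.1 in HCT116 WT, 13.3 to 72.8 in HCT116 KO, 150 to 502 in SW480 WT and 1079 to 3762 in SW480 KO libraries. *LUM* went from 0 in each HT29 WT library to 82.5 to 1125 in HT29 KO libraries, through which alone it passed the filter, with *DCN* at 0 in all HT29 libraries, and *COL6A3* rose in SW480 KO clones (log2 difference 3.50 ± 0.54, adjusted p = 0.000738). The 5 leukocyte markers summed to at most 92.4 in any library, with *PTPRC* at 0 in HT29 KO, HCT116 WT and SW480 WT and *CD3E* at 0 in HT29 WT and SW480 KO libraries. The 3 endothelial markers found in the files summed to at most 36.4 outside SW480 KO libraries, where they reached 118 to 234, chiefly *VWF* (log2 difference 2.98 ± 0.35, adjusted p = 5.26e-05). Among the leukocyte markers *LCP1* rose in HCT116 KO clones (log2 difference 1.58 ± 0.47, adjusted p = 0.0452). *KRT20* and *EPCAM* in HCT116, *LCP1* and *VWF* were named after their values had been seen. The part of any of these in the integrin results was not tested.

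The genes most like each member were sought over the 12 clone means among 11052 protein-coding genes that averaged 100 normalized counts or more. The correlations are descriptions, since clones of a line share their background and differences between lines carry most of the spread. Among the α chains they were *SLAIN2* (r = 0.956) and *BCR* (r = 0.954) for *ITGA2*, *EMP1* (r = 0.939) and *ATG7* (r = 0.924) for *ITGA3*, *CHST15* (r = 0.995) and *PGAP4* (r = 0.995) for *ITGA5*, *FNDC3B* (r = 0.945) and *ARFRP1* (r = 0.934) for *ITGA6* and *TBC1D10A* (r = 0.978) and *IRF1* (r = 0.977) for *ITGAV*. Among the β chains they were *TXNRD1* (r = 0.954) and *ASPH* (r = 0.953) for *ITGB1*, *PITPNM3* (r = 0.941) and *NTN4* (r = 0.895) for *ITGB4*, *ZNF181* (r = 0.983) and *STRA6* (r = 0.982) for *ITGB5*, *NDUFA3* (r = 0.979) and *HSPG2* (r = 0.978) for *ITGB6* and *PDGFC* (r = 0.835) and *SPRY1* (r = 0.808) for *ITGB8*. *ITGB8* had the least similar neighbours and *ITGA5*, absent from HT29, the most similar. Between members, *ITGAV* and *ITGB5* had r = 0.819 and *ITGA6* and *ITGAV* r = 0.775, whereas *ITGA5* and *ITGB6* had r = −0.885.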

How the data were processed

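Published RNA-seq of 24 libraries (TruSeq RNA v2, unstranded) was used. The authors mapped reads with STAR 2.7.5b to GRCh37, counted them per gene with featureCounts 2.0.1 and divided them by a DESeq2 (2.11.40.6) size factor, and the deposited values are this normalized signal. Whole reads were recovered for 100% of values (tolerance 0.01), 22297049 to 29068378 per library. Their 3 tables of fold changes and p-values were not used. No column of another sample was present.

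Log2(value + 1) was tested with limma 3.58.1 (trend and robust; R 4.3.3) on genes with at least 10 in at least 4 libraries, with Benjamini-Hochberg adjustment over all genes tested. Each line was fitted on its 8 libraries, and line comparisons on all 24 as 6 groups that share 1 estimate of the spread. edgeR 4.0.16 and DESeq2 1.42.0 on recovered reads, other scalings, pseudocounts, filters, a round block, clone as random effect, clone means and left-out libraries or clones were alternatives. The fits were tested on simulated data without clone or round effects, which cannot show how calls hold with 2 clones per genotype. Correlations of deviations between same-lettered clones were 0.246 to 0.541 in HCT116 (6 of 6 over 0.1), −0.42 to 0.554 in HT29 (2 of 6) and −0.0787 to 0.201 in SW480 (2 of 6). Rounds were read as pairing the HCT116 libraries, but the main fits held no round term there either. The round block was an alternative only. The labels give A and B as replicates only. The members and gene lists were chosen with earlier results of these data known. Results of some genes on these lists are not reported here. Genes outside the members were named by rule: per list and line, at most 2 called genes with the largest change, a mean of at least 100 and no overlap between genotypes, and for likeness the 2 highest Pearson correlations over clone means.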

Additional observations from a re-analysis of the deposited data

Results flagged for a closer look

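Within groups of 4 libraries, 3 of 57 sets of member values held a library far from the others by a test of the gap to its nearest neighbour. Chance gives this in about 1 of 20 sets of independent values. Each set here is 2 clones in 2 rounds, so that this rate need not hold. *ITGB4* in HT29 KO 38A (28863 normalized counts) and *ITGB1* in HT29 KO 38A (28782) stood above the other HT29 KO libraries, and both come from the clone whose replicates lay farthest apart. *ITGA2* in SW480 KO 17A (1006) stood above KO libraries that span a narrow range.

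By the tested difference of the differences, the KO effect differed for 3 of 10 members between HT29 and HCT116, 5 between HT29 and SW480 and 3 between HCT116 and SW480 cells. Of all genes tested, 7.25%, 15.8% and 13.2% differed, and these comparisons share libraries. For HT29 minus HCT116 the difference of KO effects was −1.47 for *ITGA3* (adjusted p = 0.0156), −1.15 for *ITGB5* (adjusted p = 0.00364) and −3.03 for *ITGB6* (adjusted p = 0.00128). For HT29 minus SW480 it was −1.33 for *ITGA3* (adjusted p = 0.0149), −1.05 for *ITGAV* (adjusted p = 0.0223), −0.80 for *ITGB1* (adjusted p = 0.0266), −2.79 for *ITGB6* (adjusted p = 0.000956) and −5.07 for *ITGB8* (adjusted p = 0.00501). For HCT116 minus SW480 it was −1.24 for *ITGB4* (adjusted p = 0.0334), 0.80 for *ITGB5* (adjusted p = 0.0273) and −3.77 for *ITGB8* (adjusted p = 0.041). The *ITGB6* values rest on 33 and 1 reads in HCT116 KO and WT cells and depend on the pseudocount. None of these calls was left with the rounds averaged per clone.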

How the results depend on the processing

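The counts of called members between KO and WT clones (0, 4 and 9 in HT29, HCT116 and SW480) stayed within 1.5 times under most alternatives, the round as a replicate block included (0, 4 and 9). Exceptions were 2 in HT29 with DESeq2, and in HCT116 1 with the rounds averaged per clone and 2 without clone WT 4. Under the block 7 members were called between the HCT116 WT clones and 1 between the HT29 KO clones, and it changed no other count by over 1.5 times. Keeping every gene with any value above 0 gave 6 between the HCT116 WT clones.

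Differences of KO effects were less stable. With the rounds averaged per clone the counts were 0, 0 and 0. HT29 against HCT116 gave 6 without clone HT29 KO 38. HT29 against SW480 gave 3 with clone as random effect, 2 without HT29 WT 40, SW480 WT 5 or SW480 KO 21, and 3 without SW480 WT 4 or KO 17. HCT116 against SW480 gave 1 with any value above 0, 0 with clone as random effect, 1 without HCT116 WT 4, HCT116 KO 47 or SW480 KO 17, and 0 without SW480 WT 4 or WT 5. Leaving out 1 library at a time gave 3 to 6 for HT29 against SW480, 1 to 3 for HCT116 against SW480, 0 to 5 between the HT29 KO clones, 0 to 4 between the HT29 WT clones, 1 to 3 between the HCT116 WT clones and 2 to 5 between the SW480 WT clones.

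Differences that changed sign were all uncalled ones. Between HT29 KO and WT clones, leaving out WT 11 gave −0.095 for *ITGA3*, −0.49 for *ITGA6*, −0.14 for *ITGAV* and 0.39 for *ITGB6*, leaving out KO 38 gave −0.059 for *ITGA6* and 0.17 for *ITGB6*, and leaving out KO 28 gave −0.073 for *ITGAV*. In HCT116, leaving out KO 44 gave 0.55 for *ITGA2*, −0.039 for *ITGB4* and −0.73 for *ITGB8*, leaving out WT 6 gave 0.16 for *ITGA2* and leaving out WT 4 gave −1.28 for *ITGB8*. Between WT lines, *ITGA3* became −0.36 (HT29 minus HCT116) and *ITGA6* −0.20 (HT29 minus SW480) without HT29 WT 40, *ITGA3* became 0.00297 and *ITGAV* 0.15 (HT29 minus SW480) without HT29 WT 11, and *ITGB8* became −0.60 (HCT116 minus SW480) without HCT116 WT 6. Single libraries left out gave −0.13 to 0.46 for *ITGA6*, −0.046 to 0.38 for *ITGAV* and −0.41 to 0.096 for *ITGB6* in HT29, −0.54 to 0.083 for *ITGA2* in HCT116, −0.0057 to 0.44 for *ITGA3* between WT HT29 and HCT116, and −0.36 to 0.0497 for *ITGAV* between WT HT29 and SW480 cells. The cause was not tested. Over all alternatives, 2096 single-member values kept direction and call, 164 lost and 36 gained the call, and 25 reversed. For differences of KO effects and between clones, this tally covers only members called in the main fit. Calls gained there by other members, such as those under the round block, are not in it. Each genotype has 2 clones per line, and *ITGA5* in HT29 and *ITGB6* in HCT116 cells had too few reads to be tested.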
